A study of Mus musculus with 6 samples.

Results

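Several enzymes of glycolysis are made in the adult heart from more than 1 gene, and the 10 isoform genes described here (Hk1, Hk2, Pfkm, Pfkp, Pgam1, Pgam2, Eno1, Eno3, Ldha and Ldhb) were chosen by name from the 54532 genes of a heart RNA-seq table. They form 5 pairs. In 4 of them (Pgam2 with Pgam1, Eno3 with Eno1, Pfkm with Pfkp, Ldhb with Ldha) the gene named first is the isoform enriched in striated or heart muscle and the gene named second is used more generally. The hexokinases Hk2 and Hk1 form the fifth pair. All 10 genes passed the filter on low values, a mean of at least 0.5 FPKM (fragments per kilobase of gene, scaled to library size) over the 6 hearts.

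The series holds 3 heart samples from control mice of genotype Mrps5 fl/fl (Ctrl) and 3 from conditional knockout mice of genotype Mrps5 fl/fl; MCM (cKO). The samples are called hearts here, although the labels do not state that each is a separate animal. MCM is the MerCreMer transgene, a tamoxifen-inducible Cre recombinase driven by the αMHC promoter, so the deletion of Mrps5, which encodes a protein of the small mitochondrial ribosomal subunit, is directed to cardiomyocytes and not to the other cells of the heart. Mice of both genotypes received tamoxifen by intraperitoneal injection, at 45 mg/kg/day for 5 days from 8 weeks of age, and the labels place tissue collection 12 weeks later. The control group therefore received the drug but carried no Cre, and an effect of Cre itself and of the loss of Mrps5 cannot be told apart. The study's methods name ventricular tissue and an age of 12 weeks, whereas the labels name heart tissue and 12 weeks after the injections.

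Glycolysis splits glucose into pyruvate in the cytosol. Hexokinase traps glucose as glucose 6-phosphate, phosphofructokinase commits the sugar to the pathway, phosphoglycerate mutase and enolase act toward its end, and lactate dehydrogenase interconverts pyruvate and lactate. The adult heart draws most of its energy from fatty acid oxidation, and cardiomyocytes and skeletal muscle fibres replace several embryonic or general isoforms with muscle isoforms as they mature: PGAM2 for PGAM1, ENO3 for ENO1 and PFKM for the platelet-type PFKP. Lactate dehydrogenase is a special case, since LDHB is the H subunit that prevails in heart and LDHA the M subunit that prevails in skeletal muscle. HK2 is the insulin-responsive hexokinase of adult striated muscle, and HK1 is the form found in most tissues and in the fetal heart.

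Each heart gave 15989322 to 24875499 reads assigned to genes, recovered from the deposited values. Mrps5 itself stood at 5.99 ± 0.690 FPKM in Ctrl and 1.22 ± 0.0947 FPKM in cKO hearts (mean ± SD, n = 3 in each group here and below), and 20.4% of its level was left. cKO replicate 2 stood apart from the other hearts: its Y-linked genes were at 0 FPKM and its Xist at 10.7 FPKM. The other 5 hearts had Y-linked means of 7.61 to 8.79 FPKM and Xist of at most 0.127 FPKM. That is the pattern of a female in cKO replicate 2 and of males in the other 5. The study's reporting summary names male mice only, and the labels give no sex. The atrial marker Myl7 ran from 18.1 to 679 FPKM in Ctrl and from 71.8 to 495 FPKM in cKO hearts, highest in Ctrl replicate 1 and cKO replicate 3. Calls of members that turned on these hearts are given with and without them.

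In the 4 pairs, 3 general isoforms rose in cKO hearts, led by Pgam1 at 3.31 times and Pfkp at 3.43 times their Ctrl level, and 3 of the 4 muscle isoforms fell, led by Eno3 at 0.419 times its Ctrl level. With the hexokinase Hk1 among the rises and Ldha among the falls, 4 of the 10 genes were higher and 4 lower at an adjusted p under 0.05 (limma on log2(FPKM + 1), Benjamini-Hochberg over 12944 genes), and Pgam2 and Hk2 did not pass. Over all 12944 genes tested the same rule called 33.3%, with 16.3% higher and 17.0% lower, and the median log2 fold change was -0.02. The groups did not overlap for 8 of the 10 members, against 51.2% of all genes tested (24.8% with cKO higher and 26.4% with cKO lower). These 8 are the called members, and overlap and call rest on the same values. Without cKO replicate 2 the counts were again 4 and 4, with Hk2 in place of Ldha among the falls. In tissue RNA of this kind, fewer cells of a type and less RNA per cell cannot be told apart.

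**Figure D1:**
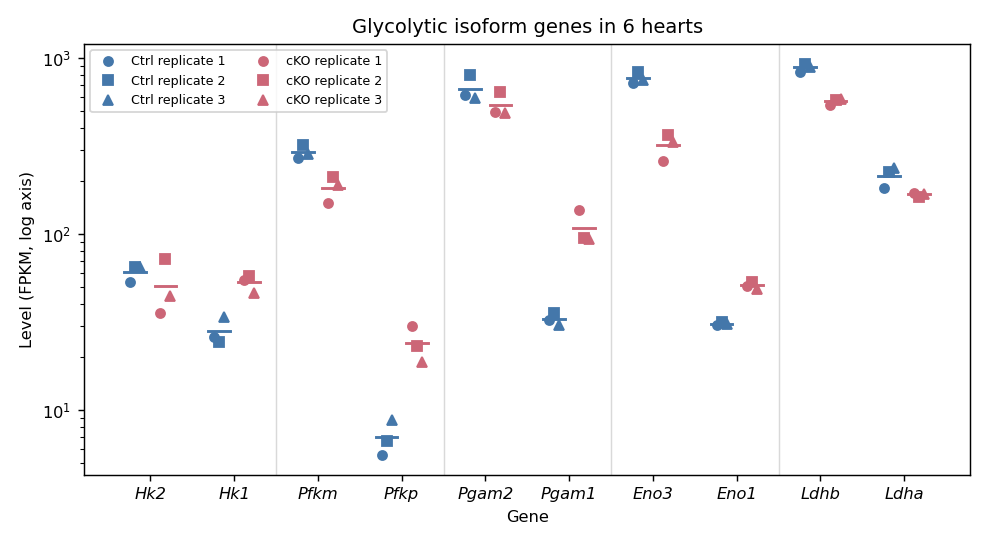
Level of each isoform gene in each heart (FPKM, log axis), with Ctrl hearts in blue, cKO hearts in red, 1 symbol per replicate number and a bar at the group mean. The cKO hearts sit above the Ctrl hearts for Hk1, Pfkp, Pgam1 and Eno1, below them for Pfkm, Eno3, Ldhb and Ldha, and overlap them for Hk2 and Pgam2.

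At the first step of the pathway, Hk1 (chr10:62268855-62379908, minus strand) stood at 26.2, 24.3 and 34.0 FPKM in Ctrl hearts, in the order of replicates 1 to 3 used throughout, against 55.1, 58.2 and 46.2 FPKM in cKO hearts. Every cKO heart was above every Ctrl heart, and the mean rose from 28.1 ± 5.12 to 53.2 ± 6.26 FPKM (0.90 ± 0.14 SE on the log2 scale, adjusted p = 0.00498). Hk2 (chr6:82725025-82774454, minus strand) read 53.4, 65.1 and 64.9 FPKM in Ctrl and 35.6, 72.0 and 44.4 FPKM in cKO hearts. cKO replicate 2 was the highest of all 6 hearts for Hk2 while the other cKO hearts were the lowest. The Hk2 difference was -0.32 on the log2 scale with a 95% interval of -0.90 to 0.25 (adjusted p = 0.344), and without cKO replicate 2 it was -0.60 (adjusted p = 0.0214), which passed. Hk2 was also the most variable member among cKO hearts, with a coefficient of variation of 37.5% against 11.0% in Ctrl.

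Phosphofructokinase showed opposite movement within 1 pair. Pfkm (chr15:98092589-98132451, plus strand), the muscle form, read 271, 323 and 286 FPKM in Ctrl and 150, 211 and 189 FPKM in cKO hearts, without overlap. Its mean fell from 294 ± 26.8 to 183 ± 31.1 FPKM (-0.69 ± 0.14 SE on the log2 scale, adjusted p = 0.0111). Without the heart of highest Myl7 in each group, 2 hearts against 2, the difference was -0.77 with an adjusted p of 0.0609, past the threshold no longer. Pfkp (chr13:6579768-6648777, minus strand), named for platelets and, with the deposited gene lengths, the least abundant member in both groups, read 5.55, 6.72 and 8.82 FPKM in Ctrl and 30.2, 23.3 and 18.9 FPKM in cKO hearts. The lowest cKO heart lay well above the highest Ctrl heart, and the mean rose from 7.03 ± 1.66 to 24.1 ± 5.73 FPKM (1.64 ± 0.20 SE on the log2 scale, adjusted p = 0.00232). Pfkp shares positions on the opposite strand with Pitrm1 (mean 11.9 FPKM) and Pfkm with Senp1 (mean 1.11 FPKM). Use of the strand in counting was not stated, so reads shared with these neighbours cannot be told apart.

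In phosphoglycerate mutase, as in hexokinase, the general form was called and its partner was not. Pgam1 (chr19:41911871-41918664, plus strand) read 32.5, 35.7 and 30.4 FPKM in Ctrl and 138, 94.7 and 94.2 FPKM in cKO hearts. cKO replicate 1 was the highest, and all cKO hearts were clear of the Ctrl range. The mean rose from 32.9 ± 2.70 to 109 ± 24.9 FPKM (1.68 ± 0.16 SE on the log2 scale, adjusted p = 0.00111). Pgam2 (chr11:5801640-5803733, minus strand), the muscle form, read 618, 802 and 591 FPKM in Ctrl and 495, 638 and 486 FPKM in cKO hearts. Replicate 2 was the highest heart of both groups, and cKO replicate 2 lay above Ctrl replicates 1 and 3. The Pgam2 mean was 670 ± 114 FPKM in Ctrl and 540 ± 85.2 FPKM in cKO, a log2 difference of -0.31 with a 95% interval of -0.68 to 0.06 (adjusted p = 0.170), which did not pass. A processed copy of Pgam1, Pgam1-ps2, was listed at 0.882 FPKM in Ctrl and 2.35 FPKM in cKO. How reads with several alignments were counted was not stated, and the Pgam1 values are uncertain to that extent.

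The bases before the RefSeq start of this pair (GRCm38.p6, 250 bases, read 5′ to 3′ on the strand of the gene) are shown. In this pair, as in hexokinase, the general gene was higher in every cKO heart while its partner overlapped between the groups. Both windows printed hold a match to a motif searched for. Windows of Pfkp and Eno3 were taken in the same way, held none of these motifs and are not printed. Capitals mark ACGTG, the core of the hypoxia response element, in Pgam1 (chr19:41911621-41911870, plus strand), and the match to the MEF2 consensus, the site of a family of muscle transcription factors, in Pgam2 (chr11:5803797-5804046, minus strand).
Pgam1: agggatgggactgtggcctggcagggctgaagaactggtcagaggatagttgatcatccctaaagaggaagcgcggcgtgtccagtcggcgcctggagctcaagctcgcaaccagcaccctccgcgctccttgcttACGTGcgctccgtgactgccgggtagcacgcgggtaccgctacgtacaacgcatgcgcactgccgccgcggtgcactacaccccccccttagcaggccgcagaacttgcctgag
Pgam2: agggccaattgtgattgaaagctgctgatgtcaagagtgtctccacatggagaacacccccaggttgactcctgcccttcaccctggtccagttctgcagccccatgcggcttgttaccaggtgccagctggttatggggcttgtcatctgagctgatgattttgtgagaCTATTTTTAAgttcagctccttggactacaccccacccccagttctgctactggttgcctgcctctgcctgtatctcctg
The ACGTG match began 114 bases and the MEF2 match 80 bases before the RefSeq start. For Pgam2 that start lies outside the gene as listed above (chr11:5801640-5803733), so the match is farther from the listed gene. The last 20 bases of each searched window, which lie past the RefSeq start, were not found in a GENCODE M21 transcript of either gene. The window of Pgam1 was 64.0% G and C and that of Pgam2 53.2%, and the median over all 32851 RefSeq windows was 52.4%.

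Both strands of windows reaching from 250 bases before to 50 bases after each start were searched for 5 motifs, and RefSeq had 17 such windows for the 10 members, all 10 matched by symbol. ACGTG was in the windows of 5 members (Pgam1, Pfkm, Ldha, Hk1 and Hk2), 6 of 17 windows or 35.3%, against 19.6% of all windows. CACGTG, the E-box bound by MYC and other factors, each match of which holds an ACGTG, was in 2 members (Pfkm and Ldha), and 7.15% of all windows held it. The MEF2 consensus was in Pgam2 and in no other member, with 3.19% of all windows holding it. TGATGNAA, the core of the element bound by ATF4 with C/EBP proteins, and TCAAGGTCA, the extended half-site of estrogen-related receptors, were in 0 of the 17 member windows and in 3.97% and 0.423% of all windows. Members with an ACGTG were among the genes that rose (Pgam1, Hk1), that fell (Pfkm, Ldha) and that did not pass (Hk2).

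Enolase had the largest fall of any member. Eno3 (chr11:70657202-70662513, plus strand), the muscle enolase, read 720, 832 and 747 FPKM in Ctrl and 260, 368 and 335 FPKM in cKO hearts. The highest cKO heart held less than the lowest Ctrl heart by a wide gap, and the mean fell from 767 ± 58.6 to 321 ± 55.1 FPKM (-1.27 ± 0.14 SE on the log2 scale, adjusted p = 0.00167). Eno1 (chr4:150236721-150248879, plus strand), the general enolase, read 30.6, 31.7 and 30.7 FPKM in Ctrl and 50.8, 53.5 and 49.0 FPKM in cKO hearts. It was the least variable member in Ctrl, with a coefficient of variation of 1.86%, and its mean rose from 31.0 ± 0.577 to 51.1 ± 2.24 FPKM, or 1.65 times (0.70 ± 0.0677 SE on the log2 scale, adjusted p = 0.00120). The retrocopy Eno1b was listed at 1.58 FPKM in Ctrl and 2.65 FPKM in cKO.

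Lactate dehydrogenase differed from the other pairs in that both genes fell. Ldhb (chr6:142490249-142507957, minus strand), the most abundant member in both groups, read 833, 931 and 890 FPKM in Ctrl and 540, 578 and 588 FPKM in cKO hearts. Spread within each group was small, and the mean fell from 884 ± 49.0 to 569 ± 25.6 FPKM (-0.64 ± 0.0837 SE on the log2 scale, adjusted p = 0.00276). Ldha (chr7:46841475-46855627, plus strand) read 184, 224 and 238 FPKM in Ctrl and 171, 163 and 170 FPKM in cKO hearts. The groups were separated only by the gap between Ctrl replicate 1 and cKO replicate 1, and the mean fell from 215 ± 28.3 to 168 ± 4.09 FPKM (-0.35 ± 0.11 SE on the log2 scale, adjusted p = 0.0468). This call was lost under 10 of 15 alternative settings, among them each of 5 of the 6 fits that leave out 1 heart, and its adjusted p ran from 0.0181 to 0.142. Without cKO replicate 2 the adjusted p was 0.0957, and without the highest Myl7 heart of each group, 2 hearts against 2, it was 0.0542.

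**Figure D2:**
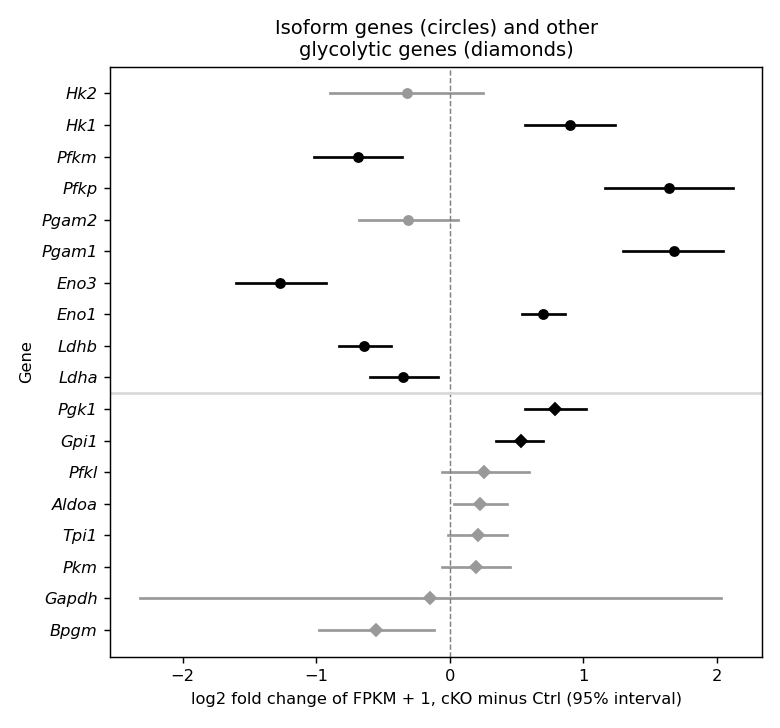
Fitted log2 fold change of FPKM + 1 (cKO minus Ctrl) with its 95% interval for the 10 isoform genes (circles) and 8 tested genes of the other glycolytic enzymes (diamonds), black where the adjusted p was under 0.05 and grey otherwise. The isoform genes run from -1.27 for Eno3 to 1.68 for Pgam1, and among the other enzymes shown Bpgm lies lowest at -0.55 and Pgk1 highest at 0.79.

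Within a heart, the ratio of the muscle gene to its partner does not depend on how libraries were scaled. It is given here as a difference of log2(FPKM + 1), for which 3 hearts against 3 allow no exact permutation p below 0.1, adjusted over the 5 pairs or not. The ratio was lower in every cKO heart than in every Ctrl heart in all 5 pairs, each with an exact two-sided permutation p of 0.1. The median log2 fold change was -0.66 for the 4 muscle isoforms and 1.17 for their 4 partners, beside -0.02 over all genes tested.

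The ratio of Pfkm to Pfkp was 5.38, 5.39 and 4.87 in Ctrl and 2.27, 3.13 and 3.26 in cKO hearts on the log2 scale, a difference of -2.33 in the means or 5.02-fold. Pgam2 to Pgam1 was 4.21, 4.45 and 4.24 in Ctrl and 1.84, 2.74 and 2.36 in cKO hearts, a difference of -1.99 or 3.97-fold. Eno3 to Eno1 was 4.51, 4.67 and 4.56 in Ctrl and 2.34, 2.76 and 2.75 in cKO hearts, a difference of -1.97 or 3.91-fold. These 3 pairs lay far apart between the groups, and cKO replicate 1 had the lowest ratio in each. Hk2 to Hk1 was 1.00, 1.38 and 0.92 in Ctrl and -0.62, 0.30 and -0.06 in cKO hearts, a difference of -1.22 or 2.33-fold, so that Hk1 was the more abundant form in cKO replicates 1 and 3. Ldhb to Ldha moved least, from 2.18, 2.05 and 1.90 to 1.66, 1.82 and 1.78, a difference of -0.29 or 1.22-fold, and the lowest Ctrl heart was close to the highest cKO heart.

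**Figure D3:**
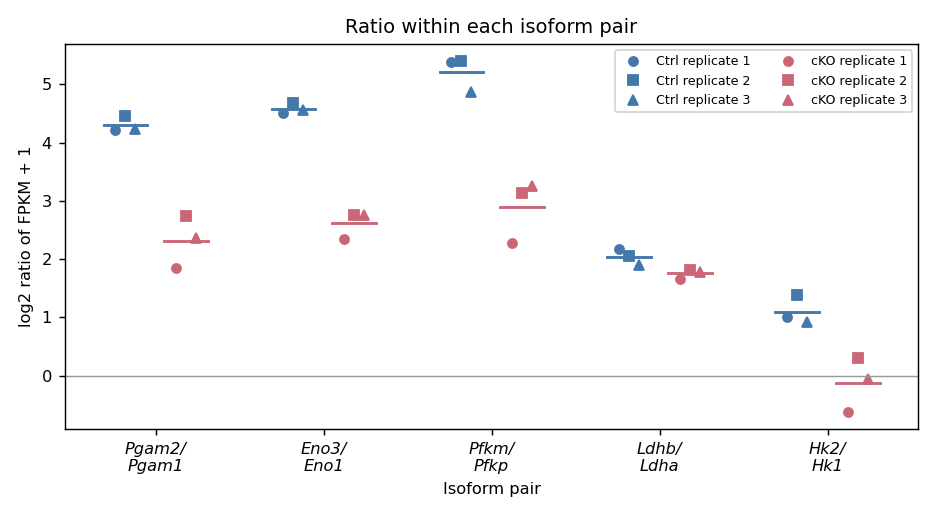
Log2 ratio of FPKM + 1 of the first to the second gene of each pair, 1 symbol per heart (Ctrl blue, cKO red) and a bar at the group mean. In each pair the 3 cKO hearts lie below the 3 Ctrl hearts, with mean differences from -2.33 for Pfkm over Pfkp to -0.29 for Ldhb over Ldha, and only the hexokinase ratio crosses 0, the line of equal levels.

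As a share of the summed FPKM of each pair, Pgam1 made up 4.72% ± 0.391 in Ctrl and 17.0% ± 4.46 in cKO, and Eno1 3.90% ± 0.212 and 13.9% ± 2.07. Pfkp went from 2.34% to 11.9%, Ldha from 19.5% to 22.8% and Hk1 from 31.5% to 52.1%. The shares depend on the gene length behind FPKM, which for several general isoforms was the union of many transcripts: 5379 bases for Eno1 and 13401 bases for Pfkp, against 2027 and 4145 bases for their longest principal transcript. With principal transcript lengths, a choice made after seeing the data, the share of Eno1 was 8.82% in Ctrl and 27.8% in cKO, that of Pfkp 6.26% and 27.1%, that of Pgam1 4.86% and 17.4%, that of Ldha 27.4% and 31.5%, and that of Hk1 48.4% and 68.8%. The muscle isoform was thus the more abundant of its pair in both groups for phosphofructokinase, phosphoglycerate mutase, enolase and Ldhb over Ldha under either length, while the order of the hexokinases in cKO hearts was near equality with deposited lengths, as that in Ctrl hearts was with principal transcript lengths.

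**Figure D4:**
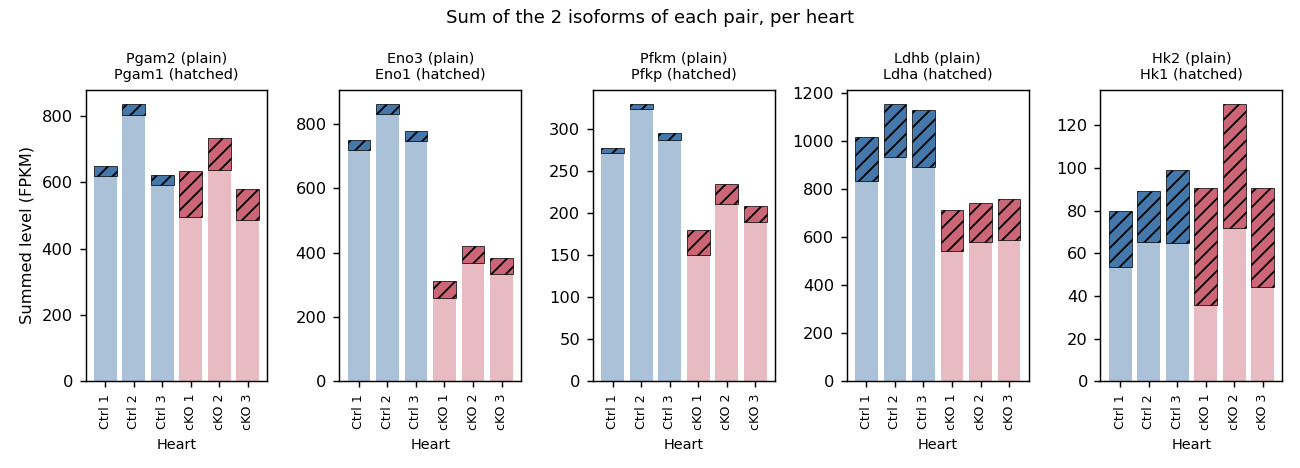
Summed FPKM of each pair in each heart (deposited gene lengths), with the muscle isoform or Hk2 plain and its partner hatched, Ctrl hearts in blue and cKO hearts in red, each panel with its own axis from 0. The cKO bars are shorter than every Ctrl bar for enolase, phosphofructokinase and lactate dehydrogenase, and overlap the Ctrl bars for phosphoglycerate mutase and hexokinase.

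The sums of the pairs differed in how far they were apart. Enolase was at 751, 864 and 778 FPKM in Ctrl and 311, 422 and 384 FPKM in cKO hearts (46.7% when means are compared), so the rise of Eno1 was small in absolute terms beside the fall of Eno3. Lactate dehydrogenase was at 67.0% and phosphofructokinase at 69.0% of Ctrl, both without overlap, and with Pfkl, the liver-type gene, added to Pfkm and Pfkp the phosphofructokinase sum was 327 ± 29.3 FPKM in Ctrl and 239 ± 22.1 FPKM in cKO. The exact permutation p was 0.1, the smallest possible, for these 3 pairs. Phosphoglycerate mutase was at 651, 837 and 622 FPKM in Ctrl and 632, 733 and 580 FPKM in cKO hearts, or 92.2% with overlap (exact permutation p = 0.6), and hexokinase at 116% of Ctrl with overlap (p = 0.4, exact permutation). Like the shares, the sums depend on gene length, which for Hk1 was 8532 bases against 3851 for its longest principal transcript. They were not recomputed with principal transcript lengths, so percentages and overlap hold for the deposited lengths only.

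The order of levels between genes depends on gene length and is given for the deposited lengths only. Ordered in this way, Ctrl hearts ran Ldhb, Eno3, Pgam2, Pfkm, Ldha, Hk2, Pgam1, Eno1, Hk1 and Pfkp. Neighbours overlapped between Eno3 and Pgam2 and among Pgam1, Eno1 and Hk1. In cKO hearts the order was Ldhb, Pgam2, Eno3, Pfkm, Ldha, Pgam1, Hk1, Eno1, Hk2 and Pfkp, with overlap between Ldhb and Pgam2, between Pfkm and Ldha, and among Hk1, Eno1 and Hk2. Eno3 thus moved below Pgam2 without overlap in cKO hearts, and Pgam1 moved above Hk2.

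Markers of the cell types a heart sample can hold were read beside these results. Of 10 cardiomyocyte markers, 6 fell and 0 rose (log2 fold changes -1.06 to -0.20), and their summed level was 19877 to 24436 FPKM in Ctrl and 11657 to 19107 FPKM in cKO hearts. Without cKO replicate 2, 9 of the 10 fell, and 3 in the 2 against 2 comparison. Relative to the mean log2(FPKM + 1) of these 10 genes in the same heart, which was lower by 0.58 in cKO, Eno3 was still lower by 0.69 and Pfkm by 0.11, both without overlap between groups. Ldhb then differed by -0.06 and Pgam2 by 0.27, both with overlap, and Ldha by 0.23, also with overlap. Pgam1 (2.25), Pfkp (2.22), Hk1 (1.48) and Eno1 (1.28) were higher on this scale with no overlap. The fall of Ldhb and Pfkm was thus near the mean fall of the cardiomyocyte markers, which themselves ran from -1.06 to -0.20. This comparison was not planned in advance. The part of cardiomyocyte content in the fall of Ldhb and Pfkm was not tested further.

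Skeletal muscle markers summed to 1.59 to 2.43 FPKM in Ctrl and 1.27 to 1.59 FPKM in cKO hearts over 8 genes, with Myh1 at 0 in all 6. Of 7 fibroblast markers 3 rose and 1 fell (summed 154 to 178 FPKM in Ctrl, 152 to 180 FPKM in cKO), and of 6 endothelial markers 4 fell and 0 rose (120 to 140 FPKM, then 78.2 to 93.2 FPKM). Of 7 macrophage markers 1 fell (160 to 232 FPKM, then 135 to 196 FPKM), of 4 tested smooth muscle and pericyte markers 1 rose and 1 fell (135 to 154 FPKM, then 86.6 to 110 FPKM). The 6 atrial markers (131 to 2086 FPKM, then 579 to 1698 FPKM) had adjusted p-values of 0.176 to 0.846 and the 5 erythroid markers (880 to 2056 FPKM, then 585 to 1588 FPKM) of 0.152 to 0.339 by limma, and did not pass. In the 2 against 2 comparison 1 atrial marker, Nppa, rose and all 5 erythroid markers fell. The study also uses Nppa as a hypertrophy marker and reports it raised in Mrps5 knockout hearts, so its rise does not by itself mark atrial tissue. No defining marker of the fibroblast, endothelial, macrophage, smooth muscle, atrial or erythroid lists was at 0 in all hearts, and the part of these cells in the levels of the general isoforms was not tested.

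Of the remaining enzymes of glycolysis, 17 genes were listed and 10 passed the filter, and 2 rose, 1 fell and 7 did not pass (median log2 fold change 0.20). Pgk1, phosphoglycerate kinase of the ATP-forming step ahead of phosphoglycerate mutase, was at 153, 175 and 162 FPKM in Ctrl and 315, 268 and 268 FPKM in cKO hearts (0.79, adjusted p = 0.00234). Gpi1, glucose phosphate isomerase, rose from 88.5 to 128 FPKM (0.53, adjusted p = 0.00331).

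The aldolase that carries the step in muscle, Aldoa (listed in 2 rows, of which the one past the filter is given), was at 907 FPKM in Ctrl and 1065 FPKM in cKO (0.23, adjusted p = 0.0742), and it passed with library totals taken without mtDNA-encoded genes (0.0213) and with voom on recovered reads (0.0489). Tpi1, triose phosphate isomerase, read 283 and 327 FPKM (adjusted p = 0.122, and 0.0339 with the same change of scaling), and Pkm, pyruvate kinase, 264 and 301 FPKM (adjusted p = 0.201). Pfkl read 26.3 and 31.9 FPKM, and Bpgm, bisphosphoglycerate mutase, 12.9 and 8.55 FPKM (log2 difference -0.55, adjusted p = 0.0545). Bpgm passed in 4 of 15 alternatives, with adjusted p-values of 0.0243 to 0.0499. Gapdh was erratic within both groups, at 22.2, 15.2 and 69.0 FPKM in Ctrl and 52.4, 55.1 and 5.47 FPKM in cKO hearts (adjusted p = 0.917), and its sign turned when single hearts were left out.

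Around the pathway, the genes that set the phosphofructokinase activator fructose 2,6-bisphosphate or oppose the enzyme gave 1 rise and 3 falls among 6 tested (median log2 fold change -0.37). Tigar, a fructose bisphosphatase, rose by 0.50 on the log2 scale (adjusted p = 0.00574), and Pfkfb1 fell from 5.34 to 1.24 FPKM (-1.55, adjusted p = 0.00565). Of 7 tested transporters of glucose and lactate, 1 rose and 3 fell (median -0.07): Slc2a1, the general glucose transporter GLUT1, went from 9.13, 8.79 and 11.2 FPKM to 23.4, 23.5 and 16.6 FPKM (1.04, adjusted p = 0.00365), and Slc2a4, the insulin-responsive GLUT4 of muscle and fat, from 130, 134 and 142 FPKM to 60.4, 80.4 and 73.6 FPKM (-0.92, adjusted p = 0.00235). Neither transporter overlapped between groups. Of 13 glycogen genes 3 rose and 6 fell (median -0.21), with Gyg, the glycogenin that primes the polymer, highest (70.6 to 199 FPKM, log2 fold change 1.46, adjusted p = 0.00176) and Phkg1, the muscle catalytic subunit of phosphorylase kinase, lowest (3.03 to 0.732 FPKM, log2 fold change -1.25, adjusted p = 0.00363). In the 2 against 2 comparison without the highest Myl7 heart of each group the counts of rises and falls were 1 and 2 for the bisphosphate genes, 1 and 2 for the transporters and 1 and 3 for the glycogen genes, and without cKO replicate 2 they were 1 and 2, 1 and 3, and 3 and 4.

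Other enzymes and proteins of the heart also come as a muscle and a general isoform, and 8 such pairs outside glycolysis proper were read the same way. The ratio of muscle to general gene was lower in cKO in 7 and higher in 1, each without overlap between groups, and the median difference was -1.41 on the log2 scale against -1.98 for the 4 glycolytic pairs. The ratio of Rpl3l, a ribosomal protein gene of striated muscle, to Rpl3 was lowest, from 1.67, 2.10 and 2.04 in Ctrl to -1.98, -2.13 and -1.18 in cKO hearts (-3.70). The exception was Pygm, muscle glycogen phosphorylase, to Pygb, at 1.05, 1.10 and 1.24 in Ctrl and 1.53, 1.46 and 1.35 in cKO hearts (0.31), where both genes fell and Pygb by more. Whether the glycolytic pairs differ from these was not tested.

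Among 5511 protein-coding genes that averaged 5 FPKM or more, the patterns over the 6 hearts most like Pgam1 by Pearson r of log2(FPKM + 1) were those of Rangap1 (0.9996), Prep (0.9995) and Rpl15 (0.9995), and those most like Pgam2 were Cand2 (0.9774), Myom1 (0.9771) and Emc2 (0.9667). Rangap1 read 7.61, 8.00 and 7.40 FPKM in Ctrl and 19.8, 15.7 and 15.3 FPKM in cKO hearts. Myom1, which encodes the sarcomere protein myomesin, read 135, 159 and 139 FPKM in Ctrl and 123, 141 and 126 FPKM in cKO hearts, highest in replicate 2 of both groups as Pgam2 was. These values describe 6 hearts that share the difference between the groups.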

How the data were processed

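RNA-seq of 6 mouse hearts was analysed from the table of FPKM values that the authors deposited. The authors made poly-A selected libraries, aligned paired reads with HISAT2 and counted them with featureCounts (2.0.5 and 1.5.0-p3 in the submitters' notes), tested counts with DESeq2, and computed FPKM from count and gene length; the length was deposited as an other, gene-level value. The strand setting and the treatment of multiple alignments were not given in the sources used here. The submitters' notes list mm9, but all 54409 gene identifiers shared with GENCODE M21 lay on the same chromosome and 53499 had the same start and end, so coordinates are those of the table and correspond to GRCm38.

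Groups came from sample titles and columns were matched by name. FPKM times length was a whole multiple of 1 read (tolerance 0.01) for 100% of values. The library sizes these steps imply were 0.913 to 0.980 of the read total in Ctrl and 1.06 in cKO hearts, so the values had been scaled between libraries. Hearts of a group differed by more than counting noise, and all were kept.

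Because the unit is FPKM, the authors' 2-group design was fitted with limma 3.58.1 (R 4.3.3, eBayes with trend, two-sided, no covariates) on log2(FPKM + 1), which understates changes of low genes, for the 12944 genes that averaged 0.5 FPKM or more, with Benjamini-Hochberg adjustment and a threshold of 0.05. The fit was run on 3 simulated tables with 200 changed genes each. That is far fewer than were called here, so its error at the share of changes in these data was not tested. Ratios and sums of pairs were compared by exact two-sided permutation over hearts. Alternatives were a pseudocount of 0.1, other filters, 2 other scalings, no trend, voom on recovered reads, a replicate block, each heart left out, and 2 hearts against 2 without the highest Myl7. Members, gene lists and pairs were chosen with earlier results of these data known, and no list was tested as a set. Genes named are the members, every other glycolytic enzyme past the filter (counts include some genes whose values are not given), the largest rise and fall past the threshold in each further list, Mrps5, the 3 genes most like Pgam1 and Pgam2, and the other isoform pairs with the largest rise and fall. The labels number the replicates without stating that each is a separate animal, so p-values measure the spread between these samples. Promoter windows are from RefSeq (GRCm38.p6).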

Additional observations from a re-analysis of the deposited data

How the results depend on the processing

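Direction held for all 10 members in all 15 alternatives fitted across all genes (150 comparisons, of which 137 kept their side of the threshold, 11 lost a call and 2 gained one). Hk1, Eno1, Pgam1, Pfkp, Eno3 and Ldhb kept their call throughout. Of the losses, 10 concern Ldha and 1 Pfkm, and the gains are Pgam2 with the replicate block and Hk2 without cKO replicate 2. The 2 against 2 comparison without the highest Myl7 heart of each group called 2 members lower, 995 genes higher and 1019 lower, with fewer hearts in the fit. Leaving out 1 heart gave 1396 to 1977 genes higher (lowest without Ctrl replicate 3) and 1423 to 2011 lower (lowest without Ctrl replicate 2, and 1432 without Ctrl replicate 3), 4 members higher and 3 to 4 lower. With 1 heart left out, pair ratios stayed between -2.20 and -1.75 for Pgam2 over Pgam1 and between -2.04 and -1.83 for Eno3 over Eno1. They ran from -2.51 to -2.02 for Pfkm over Pfkp, -0.36 to -0.22 for Ldhb over Ldha, and -1.44 to -0.98 for Hk2 over Hk1. In the 2 against 2 comparison Eno3 over Eno1 was -2.07, and the other ratios lay within these ranges. With the deposited gene lengths and 1 heart left out, the sum of Pgam2 and Pgam1 ran from 86.2% to 102% of Ctrl. That of Hk2 and Hk1 ran from 102% (without cKO replicate 2) to 124%.

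Among the 28 other genes named, 399 of 420 comparisons kept direction and call. Gapdh, never called, ran from -0.68 to 0.88 when 1 heart was left out and was 0.47 without Ctrl replicate 3, 0.88 without cKO replicate 3 and 0.70 in the 2 against 2 comparison, and Emc2, never called, was 0.01 with library totals taken without mtDNA-encoded genes. The cause was not tested. Taldo1 lost its call in 7 of 15 alternatives.

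Replicate numbers did not pair the hearts: the deviations of same-numbered hearts correlated at -0.055, 0.17 and -0.015, and only number 2 correlated best with its own. With the replicate block, 1874 genes were higher and 1982 lower, 3603 of them shared with the fit without it. Members stayed at 4 higher and 4 lower, with Pgam2 called (adjusted p = 0.0496) and Ldha not (0.0690).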

Other observations

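Beside glycolysis, the pentose phosphate pathway, which branches from glucose 6-phosphate and makes NADPH and ribose, gave 4 rises and 0 falls among 7 genes (median log2 fold change 0.41), and 1 rise in the 2 against 2 comparison without the highest Myl7 heart of each group. G6pdx, its entry enzyme, read 2.61, 2.33 and 2.81 FPKM in Ctrl and 6.10, 4.46 and 3.90 FPKM in cKO hearts (log2 fold change 0.69, adjusted p = 0.0118). Pgls and Pgd, the next enzymes of the oxidative branch, rose as well (0.41, adjusted p = 0.00903, and 0.62, adjusted p = 0.0375), though their adjusted p reached 0.0626 and 0.164 among the alternatives, while Tkt, transketolase, read 2.77 and 2.84 FPKM (adjusted p = 0.805). G6pdx, Pgls, Pgd and Tkt are named after their values were seen. Taldo1, transaldolase, had the largest rise (38.9, 43.6 and 39.0 FPKM to 97.2, 52.7 and 60.3 FPKM, log2 fold change 0.73, adjusted p = 0.0387), with cKO replicate 1 highest, as for Pgam1 and Pfkp.

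Targets of hypoxia-inducible factors outside glycolysis gave 2 rises and 4 falls among 12 tested (median -0.14), with 1 rise and 2 falls without cKO replicate 2, and 1 rise and 1 fall in the 2 against 2 comparison. P4ha1, a collagen prolyl hydroxylase, rose (0.61, adjusted p = 0.0111) and Bnip3, a mitophagy receptor, fell (-1.36, adjusted p = 0.0160). Of 14 regulators 2 rose and 5 fell (median -0.23), and 1 and 4 in the 2 against 2 comparison. Among subunits of the hypoxia-inducible factors, Hif1a rose (0.58, adjusted p = 0.00176) and Epas1 fell (-0.86, adjusted p = 0.00183). Arnt did not pass (-0.20, adjusted p = 0.181). Hif1a, Epas1 and Arnt are named after their values were seen. Myc read 2.34, 0.956 and 2.68 FPKM in Ctrl and 4.89, 7.93 and 9.26 FPKM in cKO hearts (adjusted p = 0.00922), and Klf15, a metabolic regulator of heart muscle, fell from 33.3 to 15.9 FPKM (adjusted p = 0.0137). Bnip3 and Myc lost their calls in the 2 against 2 comparison (0.0564 and 0.0580), and Bnip3 also without Ctrl replicate 3 (0.0554). The part of these regulators in the levels of the isoforms was not tested.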
